A study of Mus musculus with 11 samples.

Results

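The genes described here are 10 transcription factors and effectors of epithelial-mesenchymal transition (EMT), chosen by name and followed across mouse oviductal and ovarian surface epithelium (OSE) tissues, the organoids grown from them, mutant clones, tumors and tumor-derived organoids. All 10 were found among the 18305 genes of the count table. They are the zinc-finger repressors Zeb1, Zeb2, Snai1 and Snai2, the basic helix-loop-helix factors Twist1 and Twist2, the homeobox factor Prrx1, and the effectors Vim, Fn1 and Cdh2. In the GENCODE vM21 annotation of GRCm38 all of them are protein-coding genes. Fn1, Twist2 and Prrx1 lie on chromosome 1, Vim, Zeb2 and Snai1 on chromosome 2, Twist1 on chromosome 12, Snai2 on chromosome 16, and Zeb1 and Cdh2 on chromosome 18.

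EMT is the program by which epithelial cells give up apical-basal polarity and E-cadherin junctions and take on the shape and motility of mesenchymal cells. Factors of the SNAI and ZEB families bind short E-box elements in the promoters of epithelial genes and repress them, while TWIST factors and PRRX1 are best known from mesenchyme in the embryo. Vimentin is the intermediate filament of mesenchymal cells, fibronectin is a secreted matrix glycoprotein, and N-cadherin replaces E-cadherin in many cells that have lost epithelial contacts. Fibroblasts, smooth muscle and other stromal cells express most of these genes as part of their normal identity.

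RNA was sequenced in bulk from 27 libraries by CEL-Seq2, which tags transcripts near the 3′ end. Wild-type C57BL/6 mice gave 3 libraries of whole oviduct tissue, 3 of OSE tissue taken from the ovary by a mild protease digest, 3 of oviductal organoids and 2 of OSE organoids. Oviductal organoids of mice that express Cas9 and EGFP in all cells from the ROSA26 locus gave 3 libraries (Cas9-GFP organoids). From such organoids came the TBP clones (3 libraries), which are clonal lines edited with transfected guides and selected with Nutlin-3a. The study describes fewer independent TBP clones than there are libraries, so the libraries cannot be taken as separate clones. The p-values of comparisons with the TBP clones therefore measure the spread between libraries. TBP clones grown under the skin of immunodeficient mice gave 6 tumors, which were sequenced whole, with the host's stroma, vessels and myeloid cells. Tumors of the same origin gave 4 organoid lines kept in Nutlin-3a, of which T1-mes and T3-mes came from tumors of mixed epithelial and mesenchymal-like histology and T2-epi and T4-epi from glandular epithelial ones. The clones, tumors and tumor organoids all carry the Cas9 and EGFP transgene and the TBP edits. The study describes the 4 tumor organoid lines as derived from 1 original TBP clone, T1-mes and T2-epi from adjacent tumors. The mes and epi lines thus do not replicate over clones. Each mouse received more than 1 injection, and the labels do not say which of the 6 tumors shared a mouse.

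The shallowest library, TBP clone 1, held 82239 counts and the deepest, TBP clone 3, 4531767, and the tumors held 936348 to 3083507. Levels are given in CPM, counts scaled to a common library size with TMM factors, so that 3 counts, taken as the limit of a count of 0, stood for 34.0 CPM in TBP clone 1 and for at most 5.21 CPM in every other library. OSE organoids 2 stood apart from OSE organoids 1: its summed oviduct secretory markers were at 3452 CPM against 61.8, and its OSE and mesothelial markers at 567 CPM against 2221. OSE tissue carried 3537 to 4259 CPM of granulosa and 6252 to 7625 CPM of steroidogenic cell markers, with 339 to 404 CPM of epithelial markers, against 1632 to 2062 CPM of epithelial markers in oviduct tissue. The EGFP transgene had 0 counts in every library except T4-epi, where it had 3, so graft and host RNA could not be separated by it. In bulk RNA, fewer cells of a type and less RNA per cell cannot be told apart.

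By the number of members detected the 27 libraries fell into 2 kinds. In each of the 14 libraries of tissues, mes organoids and tumors, 8 to 10 of the 10 members had more than 3 counts. In each of the 13 libraries of normal organoids, Cas9-GFP organoids, clones and epi organoids, 1 to 5 members did. In TBP clone 1, the shallowest library, 3 counts stood for 34.0 CPM, so depth limits how many members it could show. Twist2 and Prrx1 passed 3 counts in 13 libraries, Snai1 and Snai2 in 14 and Zeb1 and Zeb2 in 15. Twist1 and Fn1 were the exceptions, with more than 3 counts in 24 and 25 libraries, and Cdh2 was seen in the fewest, 7.

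**Figure D1:**
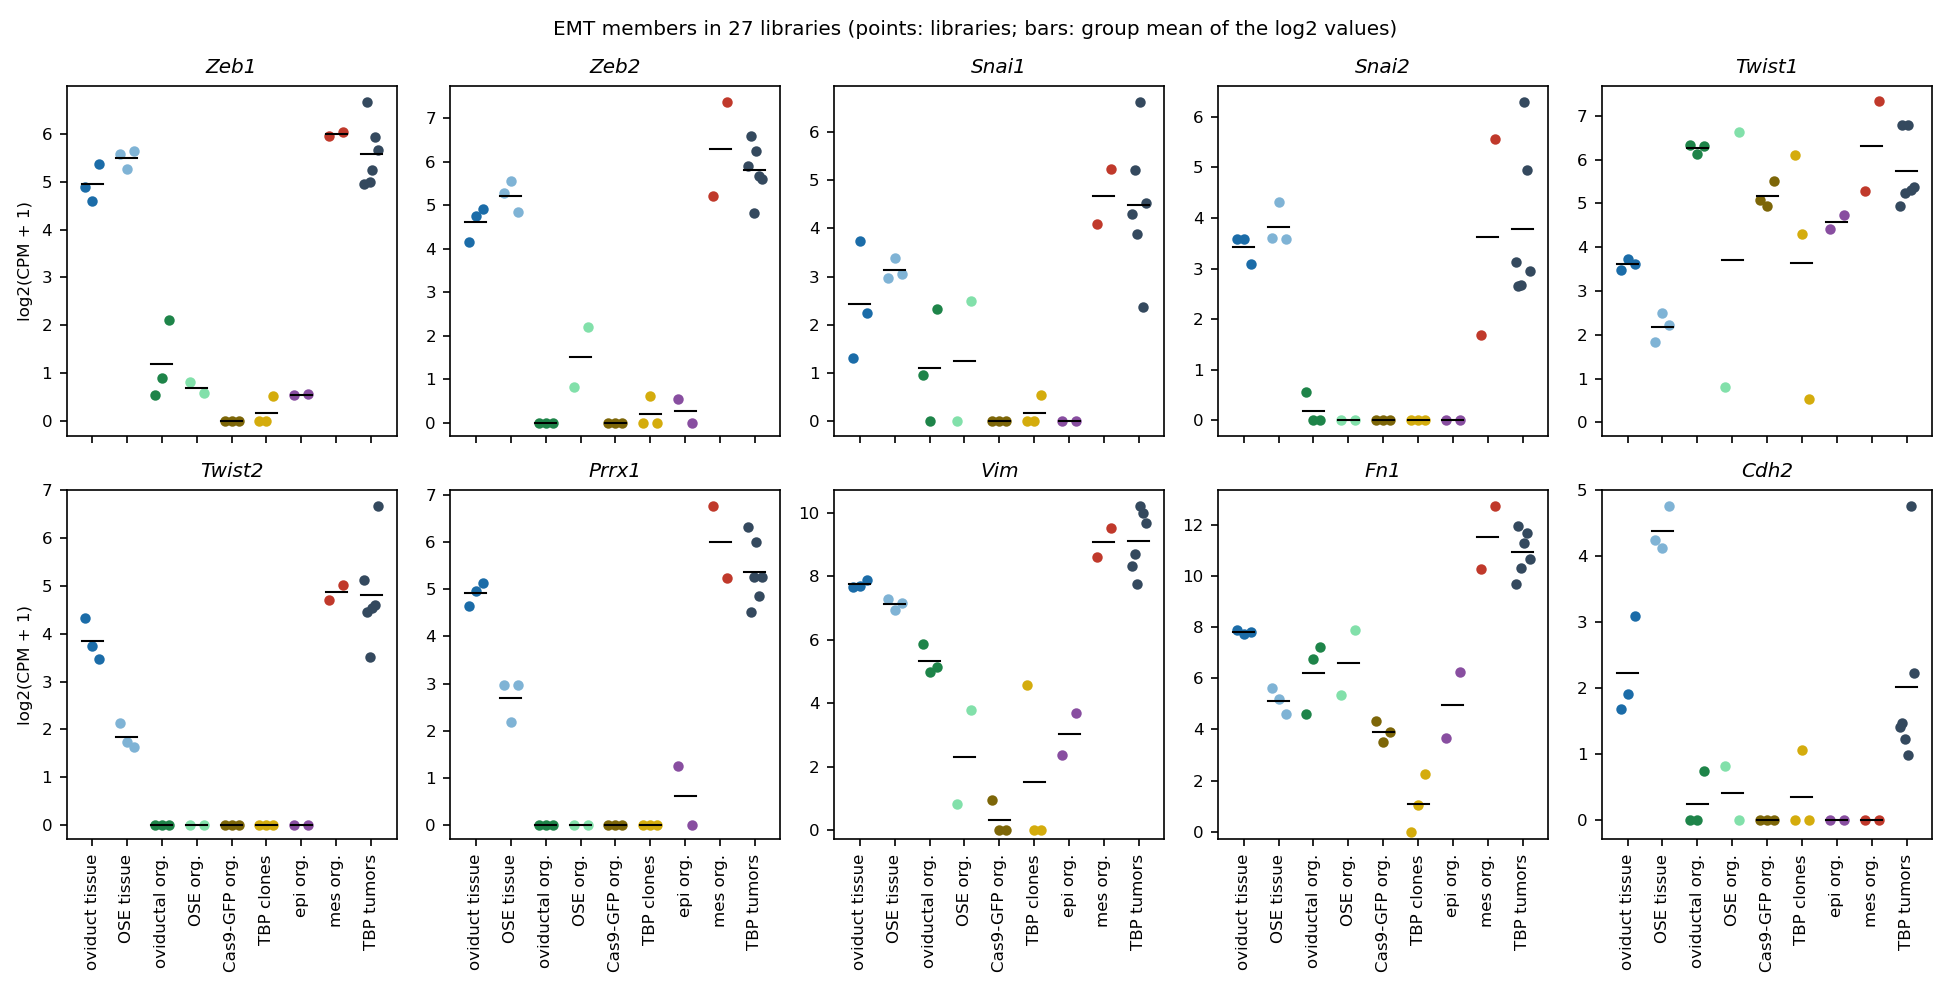
Level of each of the 10 EMT members as log2(CPM + 1) (y axis) in each of the 9 groups (x axis, org. for organoids). Points are libraries and bars are group means of the log2 values. Zeb1, Zeb2, Snai2, Twist2 and Prrx1 lie at or near 0 in the normal organoids, Cas9-GFP organoids, clones and epi organoids, Twist1 is present in most of those, and Cdh2 is high in OSE tissue and Tumor 5.

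The comparison of mes with epi organoids asks which EMT genes set the 2 kinds of tumor-derived culture apart. Of the 10 members, 8 passed the filter on low counts and 3 of them rose in mes organoids: Zeb1, Twist2 and Vim. Of all 9775 genes tested, 1.13% were called in either direction at an adjusted p under 0.05, and all 3 members also exceeded a log2 fold change of 2. Zeb1, Zeb2, Snai1, Twist2 and Prrx1 had at most 3 counts over the epi lines and passed the filter through the mes lines alone, which fixes their direction. Cdh2 had 0 counts in all 4 lines.

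Among the repressors, Zeb1 stood at 60.9 CPM in T1-mes and 64.1 in T3-mes, with 1 count in each epi line. The pooled ratio was 133 (95% exact counting interval 36.6 to 1107), and Zeb1 rose with an edgeR quasi-likelihood adjusted p of 0.0236. Both mes lines therefore held almost the same Zeb1 level, and both epi lines lay at the limit of detection.

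Zeb2 was at 35.8 CPM in T1-mes and 164 in T3-mes, against 1 and 0 counts in T2-epi and T4-epi, a pooled ratio of 421 (95% exact counting interval 75.1 to 16663) with an adjusted p of 0.0509. Snai1 was at 16.1 and 36.8 CPM in the mes lines and at 0 counts in both epi lines, which makes it at least 37.3-fold higher against 3 counts over the group (adjusted p of 0.0582). Neither gene passed the threshold in edgeR.

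Snai2 differed most between the mes lines, with 5 counts (2.24 CPM) in T1-mes and 98 counts (46.2 CPM) in T3-mes, and it had 0 counts in both epi lines. It did not pass the filter and was not tested. T3-mes was thus the line with high Zeb2, Snai1 and Snai2, while the Zeb1 levels of the 2 mes lines were close.

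Twist2 rose in mes organoids, from 0 counts in both epi lines to 25.1 CPM in T1-mes and 31.6 in T3-mes, at least 40.2-fold (adjusted p of 0.0334). Its paralog Twist1 behaved differently: it was at 20.4 CPM in T2-epi and 25.6 in T4-epi already, while T1-mes held 38.1 CPM and T3-mes 161 CPM. The log2 fold change of Twist1 was 2.13 ± 0.72 (SE, adjusted p of 0.272). Prrx1 was the only factor higher in T1-mes, with 108 CPM against 36.8 in T3-mes, and it had 3 and 0 counts in the epi lines, a pooled ratio of 104 (95% exact counting interval 35.3 to 507, adjusted p of 0.0576).

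Of the effectors, Vim was at 391 CPM in T1-mes and 738 in T3-mes, against 4.16 in T2-epi and 11.8 in T4-epi. It rose with a log2 fold change of 6.14 ± 0.70 (SE) and an edgeR adjusted p of 0.0267. Fn1 had the highest level of all members, 1242 CPM in T1-mes and 6729 in T3-mes, against 11.6 and 73.9 in T2-epi and T4-epi, with a log2 fold change of 6.56 ± 1.31 (adjusted p of 0.0899). In Fn1 the lines of 1 kind differed on both sides, with T3-mes above T1-mes and T4-epi above T2-epi. With 2 lines a group the calls were unstable: without T2-epi or without T4-epi none of the 10 members was called, without T1-mes 9 were, and DESeq2 called 7. With 1 line left in a group, its spread is assumed to be that of the other group.

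**Figure D2:**
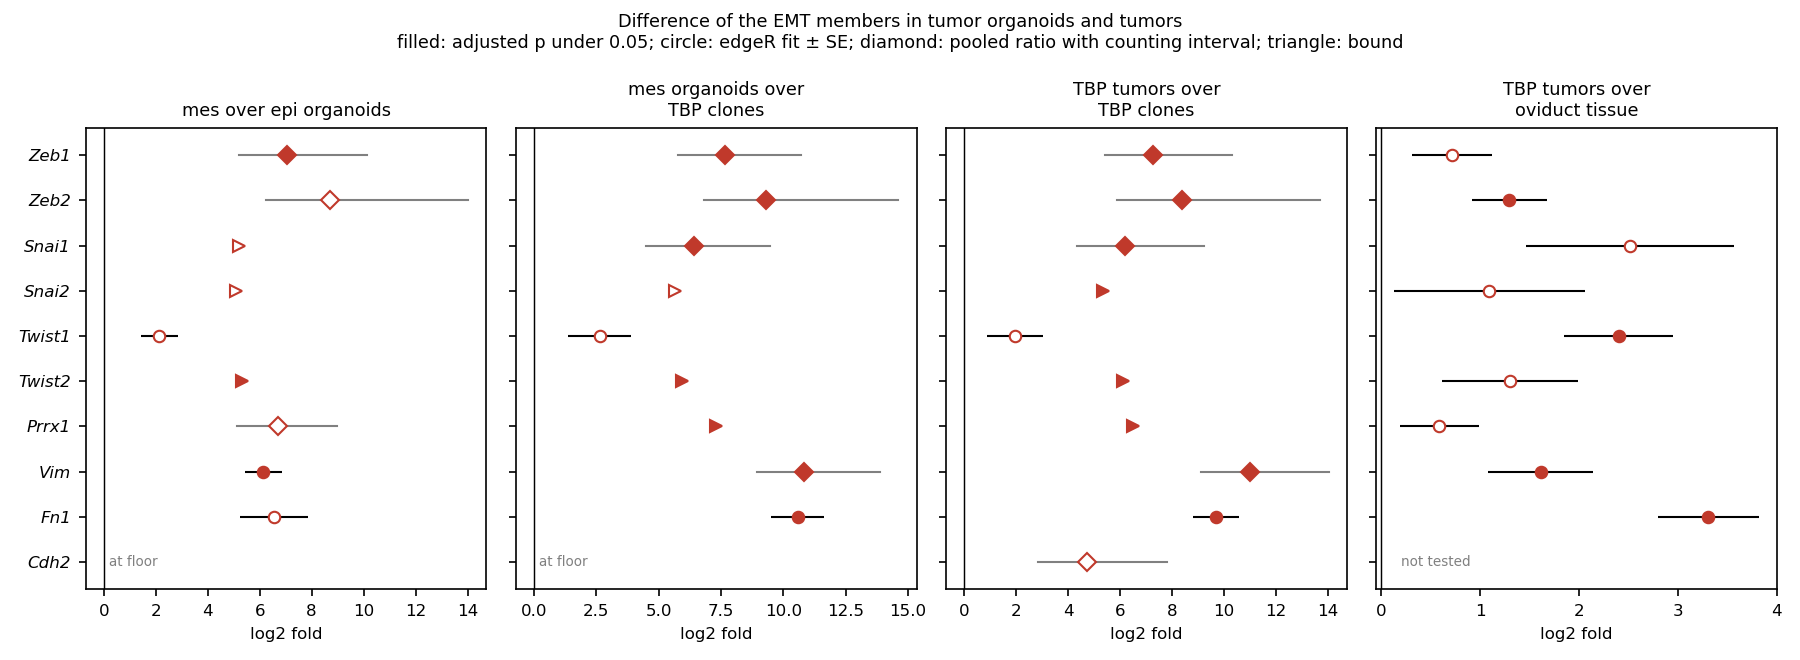
Log2 fold (x axis) of each EMT member (y axis) in 4 comparisons, with the first-named group over the second. Circles are edgeR fits with SE, diamonds are pooled ratios with 95% counting intervals for a group of 1 to 3 counts, triangles are lower bounds against a group at 0 counts, and filled symbols have an adjusted p under 0.05. Folds over epi organoids and over clones reach several units of log2, while folds of tumors over oviduct tissue lie between 0.59 and 3.31.

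Lists of related genes were counted in the same comparison. Of 22 mesenchymal effectors, 16 were tested, 6 rose in mes organoids and none fell. The matrix protein gene Sparc (log2 fold change of 6.24 ± 0.87), S100a4 (6.47 ± 0.47), and the collagens Col3a1 (5.92 ± 0.71) and Col1a1 (6.79 ± 0.78) were among them. Of 21 other EMT regulators, 16 were tested and edgeR called none (3 at an unadjusted p under 0.05, and 2 by DESeq2).

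Of 27 epithelial targets, 24 were tested, none with a higher fitted level in mes organoids, and the median log2 fold change was -1.75. EdgeR called none of them, 7 had an unadjusted p under 0.05, and DESeq2 called 1. The 2 mes lines differed: the summed level of the epithelial targets was 4366 CPM in T1-mes and 448 in T3-mes, against 6139 in T2-epi and 6958 in T4-epi. Markers of fibroblasts were also higher in the mes lines. The 7 fibroblast markers summed to 903 CPM in T1-mes and 1494 in T3-mes and to 7.86 and 20.4 in the epi lines, with 3 of the 7 over 3 counts in T1-mes, 6 in T3-mes and 2 in each epi line. Smooth muscle markers summed to at most 0.47 CPM, endothelial markers to at most 2.83 and myeloid markers to 4.71 to 22.4 CPM in the mes lines. The study describes the mes cultures as holding fibroblast-like cells beside cystic epithelial organoids. It reports GFP in all of these cells and takes them to derive from the TBP clone. The part of the fibroblast-like cells in the members' levels was not tested.

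Against the TBP clones, the starting material of the tumors, the mes organoids were compared next. Of 8 members tested 7 rose, and Twist1 was the tested member that did not pass, while 3.06% of all 9913 genes were higher in mes organoids and 0.807% lower. This comparison shares the mes libraries with the one above. Zeb1 had 2 counts in the 3 clones together, Zeb2 1, Snai1 2, Vim 2, and Snai2, Twist2 and Prrx1 had none. Except for Snai2, which was not tested, these members passed the filter through the mes lines alone, which fixes their direction.

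The pooled ratios of mes organoids to clones were 201 for Zeb1 (95% exact counting interval 55.2 to 1669), 84.3 for Snai1 (22.8 to 705) and 1803 for Vim (499 to 14896). Prrx1 was at least 157-fold higher and Twist2 at least 60.6-fold. Fn1, at 0, 1.07 and 3.79 CPM in the clones, had a log2 fold change of 10.57 ± 1.07 and an edgeR adjusted p of 0.000525. Adjusted p-values of the 7 members were between 0.000525 and 0.00613, and without TBP clone 1, the shallow library, Zeb2 (0.0620) and Snai1 (0.0622) passed the threshold of 0.05 no longer. DESeq2 did not call Vim here (adjusted p of 0.489). Vim had 2 counts in TBP clone 1, where they stood for 22.7 CPM, and 0 in the other clones. Its pooled ratio therefore depends on pooling clones of unlike depth, and DESeq2 gave a log2 fold change of 6.43.

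Of the mesenchymal effectors 9 of 16 tested rose in mes organoids against clones, with Sparc, Col1a2, S100a4 and Col3a1 at the highest levels. EdgeR called 0 of 16 other EMT regulators (4 at an unadjusted p under 0.05, 1 by DESeq2) and 0 of 25 epithelial targets (9 at an unadjusted p under 0.05, 1 by DESeq2), whose median log2 fold change was -1.70. The fibroblast markers summed to at most 5.35 CPM in the clones, and their part in the members' levels was not tested.

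Epi organoids were compared with the clones in the same way. Zeb1, Zeb2, Snai1, Snai2, Twist2, Prrx1 and Cdh2 had at most 3 counts in either group and gave no fold. Of the 3 members tested, none was called by edgeR (2 had an unadjusted p under 0.05, and DESeq2 called none), and 0.0418% of 9580 genes were higher in epi organoids. Vim had 2 counts in the clones and 9 and 25 in the epi lines, a pooled ratio of 25.6 (95% exact counting interval 6.57 to 220, adjusted p of 0.840), and the groups overlapped. Both clone counts of Vim lay in TBP clone 1, where they stood for 22.7 CPM, so the pooled ratio depends on pooling clones of unlike depth. Its group means were 8.01 CPM in epi organoids and 7.56 CPM in clones, and DESeq2 gave a log2 fold change of 0.21. Fn1 was at 11.6 and 73.9 CPM in the epi lines against 0 to 3.79 in the clones (the 0 is TBP clone 1, where it allows up to 34.0 CPM), with a log2 fold change of 4.01 ± 0.84 and an adjusted p of 0.0716. Twist1 was at 20.4 and 25.6 CPM in the epi lines and at 68.0, 18.7 and 0.45 CPM in TBP clones 1 to 3, so that the clones spanned the epi lines.

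Whole TBP tumors were compared with the clones they grew from. Of 9 members tested, 8 rose in tumors, where 20.1% of all 10473 genes were higher and 11.7% lower: Zeb1, Zeb2, Snai1, Snai2, Twist2, Prrx1, Vim and Fn1. For Vim and Fn1 all tumors lay above all clones. The other 6 had 0 counts in TBP clone 1, where 0 allows up to 34.0 CPM, and lay above the other 2 clones in every tumor. All of these but Fn1 had at most 2 counts over the clones and passed the filter through the tumors alone, which fixes their direction.

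Zeb1 ranged from 29.8 to 100.2 CPM in the tumors (median 43.1), a pooled ratio of 156 over the clones (95% exact counting interval 43.0 to 1290, adjusted p of 0.000212). Zeb2 ranged from 27.3 to 95.0 CPM (median 54.6), a pooled ratio of 334 (59.8 to 13228, adjusted p of 0.000165). Every tumor thus expressed both ZEB repressors, which had 3 counts in all clones together.

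Snai1 ranged from 4.19 to 97.6 CPM (median 20.4) and Snai2 from 5.28 to 77.3 (median 7.22). Snai1 was 73.3-fold higher by pooled counts (95% exact counting interval 20.1 to 608, adjusted p of 0.00592), and Snai2 at least 40.2-fold (adjusted p of 0.0170). The call of Snai2 was lost without TBP clone 2 or TBP clone 3, with an adjusted p of up to 0.0886. Both SNAI genes had a wider spread over the tumors than the ZEB genes, and Tumor 4 was the highest in both.

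Twist2 ranged from 10.4 to 101 CPM (median 22.7) and Prrx1 from 22.0 to 78.5 CPM (median 37.3), at least 69.2-fold and at least 90.2-fold higher than in the clones (adjusted p of 0.00283 and 0.000381). Twist1 ranged from 29.8 to 110 CPM (median 39.3) and overlapped the clones, with a log2 fold change of 1.95 ± 1.09 (adjusted p of 0.193). Vim ranged from 215 to 1188 CPM (median 614), a pooled ratio of 2038 (95% exact counting interval 564 to 16830, adjusted p of 0.000914). Both Vim counts of the clones lay in TBP clone 1, where they stood for 22.7 CPM. The pooled ratio therefore depends on pooling clones of unlike depth, and DESeq2 gave a log2 fold change of 7.81. Fn1 ranged from 819 to 3982 CPM (median 2030), a log2 fold change of 9.68 ± 0.89 (adjusted p of 8.35e-05). Among the members the effectors Fn1 and Vim thus had the highest levels in tumors and Cdh2 the lowest.

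Stromal markers were higher in the same libraries. Fibroblast markers summed to 824 to 2411 CPM in tumors and to at most 5.35 CPM in clones, myeloid markers to 538 to 2417 against 20.8 to 38.5, endothelial markers to 34.3 to 143 against at most 11.3. All 7 fibroblast and all 7 myeloid markers in the table had more than 3 counts in every tumor. The share of the members' RNA that came from host cells was not tested. Of the mesenchymal effectors 16 of 21 tested rose, with Col3a1, Col1a2, Col1a1 and Sparc at the highest levels. Of the epithelial targets 5 of 26 fell and none rose: the claudins Cldn4 (-2.86 ± 0.88) and Cldn3 (-3.06 ± 1.07), the serine protease Prss8 (-3.17 ± 0.95), the transcription factor Ovol1 (-3.36 ± 0.89) and the splicing regulator Esrp2 (-4.09 ± 0.82), all as log2 fold changes. Esrp2 was named after its values were seen, and the calls of the other 4 were lost when some single library was left out (adjusted p of up to 0.149). Of the other EMT regulators 5 rose and 2 fell among 16 tested, with Tcf4 (2.42 ± 0.36) and the TGF-beta receptor Tgfbr2 (2.02 ± 0.39) higher and Smad3 (-1.21 ± 0.26) and Foxc1 (-1.68 ± 0.45) lower.

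Oviduct tissue, which holds its own stroma and muscle, gave a reference with counts of every member in each library. Of 9 members tested against it, 4 were higher in tumors and none lower, where 23.7% of all 10827 genes were higher and 22.4% lower: Fn1, Twist1, Vim and Zeb2. The tumor libraries are those of the comparison with the clones. Fn1 was at 211, 221 and 235 CPM in oviduct tissue, below all 6 tumors, with a log2 fold change of 3.31 ± 0.51 (edgeR adjusted p of 0.000620). Twist1 was at 10.2 to 12.3 CPM in the tissue, also below every tumor (2.40 ± 0.55, adjusted p of 0.00558). These were the called members whose groups did not overlap, and the share of all genes without overlap was not counted.

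Vim was at 203, 206 and 235 CPM in oviduct tissue, within the low end of the tumors, with a log2 fold change of 1.61 ± 0.53 (adjusted p of 0.0299), and Zeb2 was at 16.8 to 28.8 CPM (1.29 ± 0.38, adjusted p of 0.0185). The calls of Vim and Zeb2 did not hold when an oviduct library was left out: Vim reached an adjusted p of 0.100 and Zeb2 of 0.0916. Zeb1 (0.72 ± 0.41), Snai1 (2.52 ± 1.05), Snai2 (1.09 ± 0.96), Twist2 (1.30 ± 0.69) and Prrx1 (0.59 ± 0.40) did not pass the threshold in edgeR, and the tumors overlapped the tissue in each of them. Fibroblast markers summed to 1364 to 2176 CPM in oviduct tissue, within the range of the tumors, while smooth muscle markers were at 1664 to 2568 CPM against 29.0 to 341 in tumors. Of the mesenchymal effectors 18 of 21 rose, led by Col3a1 (2.51 ± 0.53) and Col1a2 (2.67 ± 0.67), and 2 fell, the contractile genes Acta2 (-2.85 ± 0.44) and Tagln (-2.96 ± 0.64), which were named after their values were seen. Of the epithelial targets 2 of 23 fell, Cldn3 and Prss8, and none rose, and of the other EMT regulators 6 of 15 rose.

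The tumors did not share 1 pattern of members. Tumors 1 and 3 had the highest summed epithelial targets, 3416 and 4607 CPM, and the lowest Vim (322 and 215 CPM) and Fn1 (819 and 1278 CPM). The other 4 tumors had 401 to 537 CPM of epithelial targets, with Vim at 413 to 1188 CPM and Fn1 at 1604 to 3982 CPM. Each of these 4 lay near T3-mes (448 CPM of epithelial targets), and Tumors 1 and 3 near T1-mes.

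Different tumors led in different factors. Tumor 2 had the highest Zeb1 (100.2 CPM) and Zeb2 (95.0 CPM) and the highest myeloid marker sum. Tumor 4 had the highest Snai1 (97.6 CPM), Snai2 (77.3 CPM) and Vim (1188 CPM), and its Twist1, at 110 CPM, equalled that of Tumor 2. Tumor 6 led in Twist2, with 101 CPM where the other 5 had 10.4 to 33.7 CPM. Tumor 1 led in Prrx1 with 78.5 CPM, and Tumor 5 in Cdh2.

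Cdh2 was at 26.1 CPM (81 counts) in Tumor 5 and at 0.97 to 3.66 CPM in the others. Tumor 5 also had the lowest Snai1, 4.19 CPM, and the highest smooth muscle marker sum, 341 CPM.

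**Figure D3:**
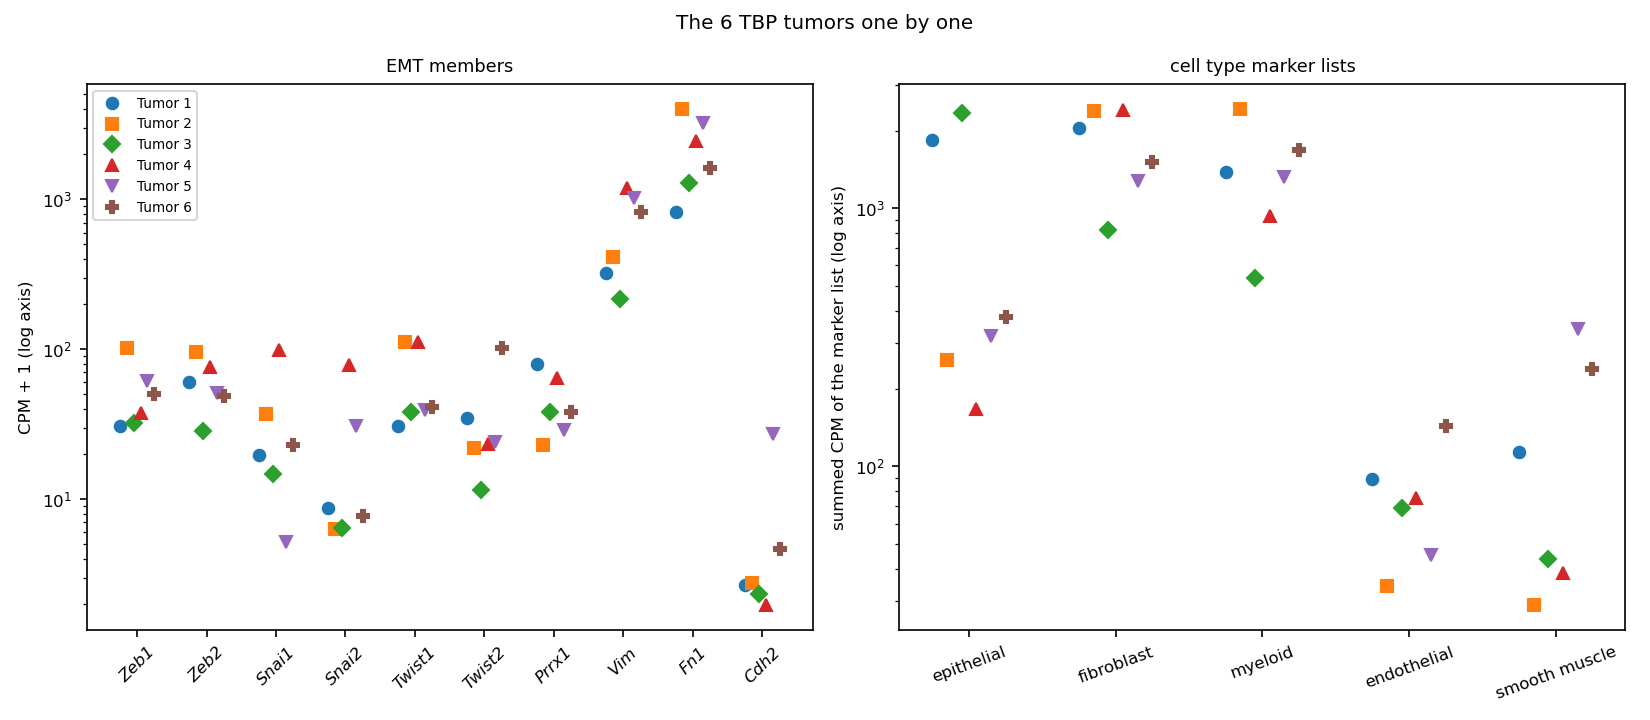
The 6 TBP tumors one by one. Left, CPM + 1 (y axis, log scale) of the 10 EMT members, 1 symbol per tumor, and right, the summed CPM (y axis, log scale) of 5 lists of cell type markers. Tumor 4 stands above the others in Snai1 and Snai2, Tumor 6 in Twist2 and Tumor 5 in Cdh2, and the epithelial markers of Tumors 1 and 3 lie at 1837 and 2339 CPM against 167 to 378 CPM in the other 4.

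The clones were compared with Cas9-GFP organoids, which carry the transgene without the TBP edits. TBP clones and Cas9-GFP organoids had at most 3 counts over the group in Zeb1, Zeb2, Snai1, Snai2, Twist2, Prrx1, Vim and Cdh2, and 2 members were tested. EdgeR called neither (1 had an unadjusted p under 0.05, and DESeq2 called none), where 0.817% of 7708 genes were called in either direction. Fn1 was at 18.8, 10.4 and 13.9 CPM in Cas9-GFP organoids and at 0, 1.07 and 3.79 CPM in the clones, where the 0, in TBP clone 1, does not exclude the Cas9-GFP levels (log2 fold change of -2.45 ± 0.62, adjusted p of 0.112). Twist1 was at 33.0, 29.5 and 44.9 CPM in Cas9-GFP organoids and in the clones spanned 0.45 to 68.0 CPM, on both sides of them (-1.50 ± 1.02, adjusted p of 0.687). TBP clone 3, the deepest library, held 2 counts of Twist1.

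Growth as organoids was compared with the tissue of origin. In the oviduct, 8 members were tested, of which 7 were lower in organoids (24.2% of all 9477 genes were lower) and 1 was higher (18.7% were higher). The lower ones were Zeb1, Zeb2, Snai2, Twist2, Prrx1, Vim and Fn1, and the higher one was Twist1. Of the lower ones, Zeb2, Snai2, Twist2 and Prrx1 had at most 1 count over the organoid lines. They passed the filter through the tissue alone, which fixes their direction.

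Zeb2, Twist2 and Prrx1 had 0 counts in all 3 oviductal organoid lines, at least 35.9-fold, 23.7-fold and 45.3-fold below the tissue (adjusted p of 3.74e-05, 0.000102 and 1.69e-05). Zeb1 was at 23.3 to 40.1 CPM in tissue and at 0.47, 0.86 and 3.33 CPM in organoids, a log2 fold change of -4.27 ± 0.55 (adjusted p of 6.41e-05). Snai2 had 1 count in the organoids, a pooled ratio of 48.0 below the tissue (95% exact counting interval 7.96 to 1961, adjusted p of 0.000141). These 5 factors were thus at most at 3.33 CPM in each oviductal organoid line. Snai1, which edgeR did not test, was at 1.46, 12.3 and 3.76 CPM in tissue and 0.94, 0 and 3.99 CPM in organoids, which overlapped.

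Vim was lower but present, 57.5, 30.8 and 34.6 CPM in organoids against 203 to 235 CPM in tissue (-2.35 ± 0.24, adjusted p of 1.16e-05). Fn1 was at 23.6, 106 and 147 CPM against 211 to 235 CPM (-1.28 ± 0.45, adjusted p of 0.0371), a call that was lost without any one of the oviduct tissue libraries or without oviductal organoids 2 (adjusted p of up to 0.0866) and in DESeq2 (0.184). Twist1 went the other way, from 10.2, 12.3 and 11.3 CPM in tissue to 79.7, 68.5 and 78.5 CPM in organoids, without overlap (2.77 ± 0.25, adjusted p of 4.65e-06). Fibroblast markers summed to 1364 to 2176 CPM in tissue and at most 3.43 CPM in the organoids, and smooth muscle markers to 1664 to 2568 CPM and at most 19.7, and their part in the members' difference was not tested. Of the epithelial targets 15 of 23 tested rose, with Krt7 (3.73 ± 0.20), Krt18 (2.45 ± 0.20), Krt8 (1.12 ± 0.17) and Cdh1 (1.65 ± 0.17) among them, and 1 fell, the desmosome gene Dsp (-1.70 ± 0.44). Of the mesenchymal effectors 13 of 18 fell, and Itgb1 and Spp1 were among those that rose. Dsp, Itgb1 and Spp1 were named after their values were seen.

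In the OSE, 6 of 8 members tested were lower in organoids, Zeb1, Zeb2, Snai2, Prrx1, Vim and Cdh2, and none higher, where 18.6% of all 10232 genes were lower and 14.5% higher. Of these members, Zeb1, Snai2, Prrx1 and Cdh2 had at most 2 counts over the organoid lines. They passed the filter through the tissue alone, which fixes their direction. Cdh2 was highest in OSE tissue among normal samples, at 17.9, 16.4 and 26.2 CPM, and had 1 count in the 2 OSE organoid lines, 70.9-fold lower by pooled counts (95% exact counting interval 12.4 to 2834, adjusted p of 0.00301). Zeb1 was at 46.9, 37.6 and 49.2 CPM in tissue and had 1 count in each organoid line, 75.5-fold lower (20.6 to 628, adjusted p of 0.000502). Both genes thus fell to the limit of detection. Granulosa cells, whose markers were abundant in this tissue, were at most at 9.20 CPM of markers in OSE organoids. Steroidogenic markers summed to 6252 to 7625 CPM in tissue and at most 13.3 in organoids. Fibroblast markers summed to 278 to 439 CPM in tissue and at most 22.0 in organoids. The part of these cell types in the members' differences was not tested.

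Snai2 and Prrx1 had 0 counts in both OSE organoid lines, at least 13.9-fold and 6.67-fold below the tissue (adjusted p of 0.00439 and 0.0106). Zeb2 was at 27.7 to 45.8 CPM in OSE tissue and at 0.75 and 3.58 CPM in the organoids (-3.88 ± 0.59, adjusted p of 0.00364). Vim was at 121 to 155 CPM in tissue and at 0.75 and 12.8 CPM in the organoids (-4.20 ± 0.74, adjusted p of 0.00618). Snai1 was at 6.82 to 9.39 CPM in tissue and at 0 and 4.60 CPM in organoids (-1.52 ± 0.88, adjusted p of 0.226). Fn1 was at 23.0 to 47.7 CPM in tissue and at 39.2 and 234 CPM in organoids 1 and 2 (2.00 ± 0.69, adjusted p of 0.0651). The second OSE organoid line was above the first in Zeb2, Snai1, Vim and Fn1.

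Twist1 separated the 2 OSE lines most widely, with 1 count (0.75 CPM) in the first and 98.1 CPM in OSE organoids 2, next to 2.56 to 4.70 CPM in OSE tissue. OSE organoids 2, the line with the high oviduct secretory marker sum, had a Twist1 level above the 68.5 to 79.7 CPM of the oviductal organoids. The filter of edgeR left Twist1 out of this comparison, and DESeq2 called it higher in organoids (3.78, adjusted p of 0.0251), as it did Fn1 (1.95, adjusted p of 0.0377). Of the epithelial targets 20 of 22 tested rose and none fell, with Krt7 (4.95 ± 0.39), Krt18 (4.74 ± 0.28), Krt8 (3.32 ± 0.27) and Cdh1 (4.95 ± 0.27) at the highest levels. Of the mesenchymal effectors 13 of 20 fell, among them Sparc (-5.87 ± 1.39) and Col3a1 (-7.05 ± 1.20), and 2 rose, the hyaluronan receptor gene Cd44 (4.47 ± 0.33) and Spp1 (5.41 ± 0.78), both named after their values were seen.

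**Figure D4:**
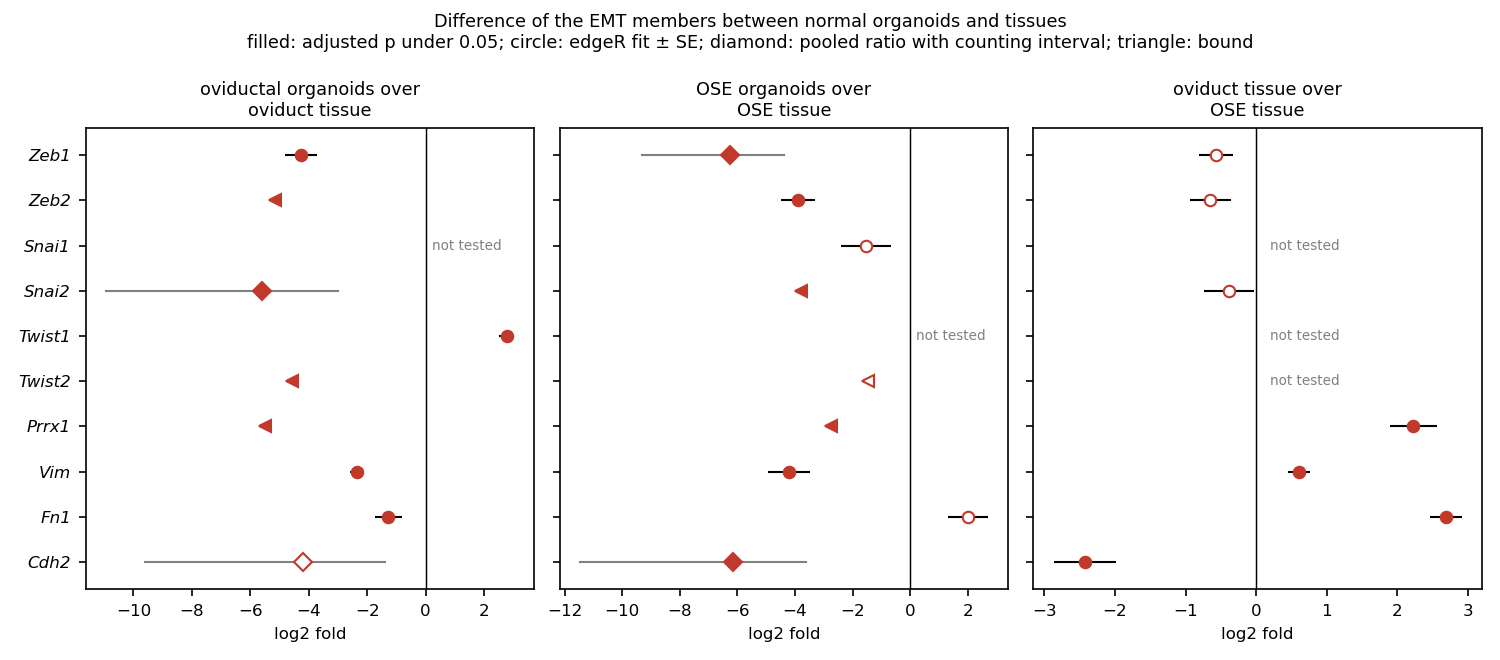
Log2 fold (x axis) of each EMT member (y axis) between oviductal organoids and oviduct tissue, OSE organoids and OSE tissue, and oviduct and OSE tissue. Circles are edgeR fits with SE, diamonds pooled ratios with 95% counting intervals, triangles bounds against a group at 0 counts, and filled symbols have an adjusted p under 0.05. Called members lie to the left in both comparisons of organoids with tissue, except Twist1 in the oviduct, at 2.77.

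The culture difference itself was compared between the origins with an interaction term. Of 10 members tested, 1 differed, where 11.7% of all 11458 genes were called in either direction. For Fn1 the log2 difference between organoids and tissue was larger in OSE than in oviduct by 3.18 ± 0.94 (adjusted p of 0.0465). That call was lost without any one of 9 of the 11 libraries, OSE organoids 2 among them, with an adjusted p of up to 0.239. For Twist1 the term was 0.97 ± 1.37 (adjusted p of 0.725) and turned to -4.96 (adjusted p of 0.000478) without OSE organoids 2, where the 1 OSE organoid line left is assumed to vary like the other groups.

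The 2 normal tissues differed in 4 of 7 members tested. Of all 8787 genes 51.2% were called in either direction, so this count does not set the members apart. Of the 4, 3 were higher in oviduct tissue (26.9% of all genes were higher) and 1 lower (24.3% were lower). Fn1 was at 211 to 235 CPM in oviduct and 47.7, 35.2 and 23.0 CPM in OSE tissue (2.69 ± 0.22, adjusted p of 1.35e-07). Prrx1 was at 24.1 to 33.9 CPM against 3.52 to 6.82 (2.23 ± 0.33, adjusted p of 4.55e-05), and Vim at 203 to 235 CPM against 121 to 155 (0.61 ± 0.16, adjusted p of 0.00447). Cdh2 was lower in oviduct tissue, with 2.19, 2.74 and 7.52 CPM against 16.4 to 26.2 (-2.43 ± 0.44, adjusted p of 0.000286). In each of these 4 genes the tissues did not overlap, and the share of all genes without overlap was not counted.

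Zeb1 (-0.57 ± 0.24) and Zeb2 (-0.65 ± 0.29) did not pass the threshold, and the tissues overlapped in both. Fibroblast markers (1364 to 2176 CPM against 278 to 439) and smooth muscle markers (1664 to 2568 against 81.0 to 136) were higher in oviduct tissue too, and their part was not tested. The calls for Fn1, Prrx1 and Vim kept their direction with each library left out, with log2 fold changes of at least 2.36, 2.03 and 0.50, and so did Cdh2. In the fit of all 27 libraries Vim (adjusted p of 0.536) and Cdh2 (0.144) were no longer called.

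Between oviductal and OSE organoids 3 members were tested, and edgeR called none (1 had an unadjusted p under 0.05, and DESeq2 called none), where 0.0864% of 9257 genes were called. Vim was at 30.8 to 57.5 CPM in oviductal organoids and at 0.75 and 12.8 CPM in OSE organoids, without overlap (2.51 ± 0.82, adjusted p of 0.329). Twist1 (0.60 ± 1.11) and Fn1 (-0.57 ± 0.88) overlapped. Without OSE organoids 2, edgeR called 2 of the 3 members, with the spread taken from the oviductal organoids alone.

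Ordered by mean level, Fn1 ran from mes organoids (3986 CPM) and tumors (2229 CPM) through oviduct tissue (222 CPM), OSE organoids (137 CPM), oviductal organoids (92.3 CPM), epi organoids (42.8 CPM), OSE tissue (35.3 CPM) and Cas9-GFP organoids (14.4 CPM) to clones (1.62 CPM). The ranges of mes organoids and tumors overlapped, as did those of OSE organoids with every other group from oviduct tissue to OSE tissue in this order. Oviductal organoids overlapped epi organoids and OSE tissue, and epi organoids overlapped OSE tissue and Cas9-GFP organoids. Vim ran from tumors (661 CPM) and mes organoids (564 CPM), which overlapped, through oviduct tissue (215 CPM), OSE tissue (139 CPM) and oviductal organoids (41.0 CPM) to groups below 10 CPM. The tumors also overlapped oviduct tissue in Vim. Twist1 had another order. Its ranges fell without overlap from oviductal organoids (68.5 to 79.7 CPM) through Cas9-GFP organoids (29.5 to 44.9 CPM), epi organoids (20.4 and 25.6 CPM) and oviduct tissue (10.2 to 12.3 CPM) to OSE tissue (2.56 to 4.70 CPM). The mes organoids (38.1 and 161 CPM), tumors (29.8 to 110 CPM), OSE organoids (0.75 and 98.1 CPM) and clones (0.45 to 68.0 CPM) each overlapped 1 or more of these and have no fixed place. Twist1 was thus the 1 member with lower levels in both normal tissues than in Cas9-GFP or epi organoids.

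**Figure D5:**
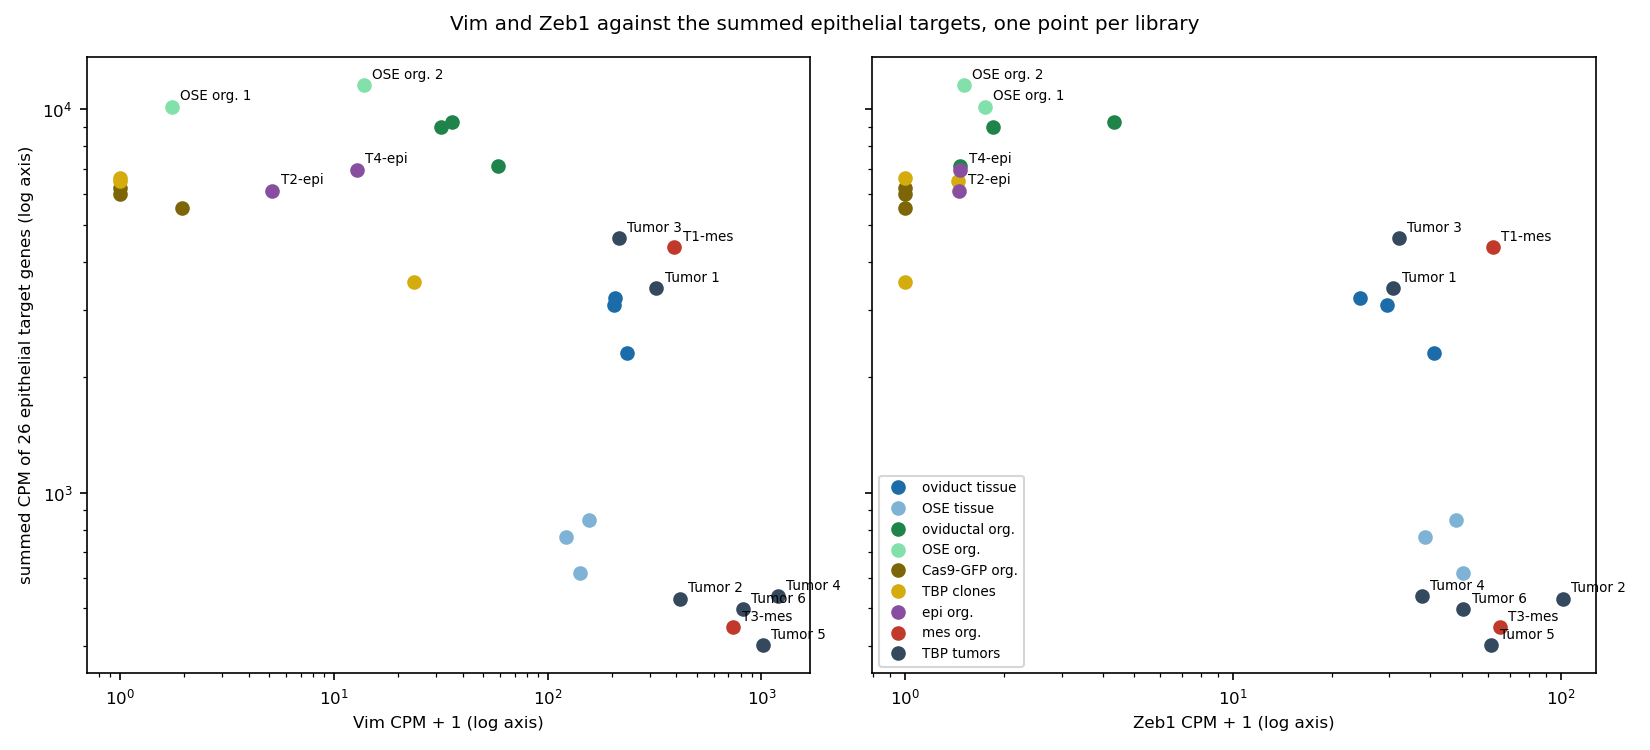
CPM + 1 (x axis, log scale) of Vim (left) and Zeb1 (right) against the summed CPM of 26 epithelial target genes (y axis, log scale), 1 point per library and colored by group. T3-mes and Tumors 2, 4, 5 and 6 lie at 401 to 537 CPM of epithelial targets, and T1-mes and Tumors 1 and 3 at 3416 to 4607 CPM, all with Zeb1 above 29 CPM.

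The genes most like 3 of the members over the 27 libraries were named from Pearson's r on log2(CPM + 1), among 8697 genes with a mean of at least 10 CPM. For Zeb1 they were Loxl1 (0.976), Rcn3 (0.976), Fyn (0.973), Zcchc24 (0.972) and Olfm1 (0.963). For Vim they were Mxra8 (0.932), Dse (0.926), Sparc (0.914), Fgfr1 (0.913) and Ddr2 (0.911), and for Fn1 Ncam1 (0.910), S100a4 (0.895), Arhgdib (0.894), Pcdh19 (0.893) and Gli3 (0.881). The 27 points come from 9 groups that differ in kind and are not independent, and the values are a description only.

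The E-box letters CAGGTG and their reverse complement CACCTG, to which factors of the SNAI and ZEB families bind, were searched on both strands in the 250 bases before each gene's start in the RefSeq promoter table of GRCm38.p6. Of 27025 genes, 19.4% held at least 1. Of the 16 epithelial targets with a window, 12 did (75.0%), against 0 of 13 other EMT regulators, 1 of 14 mesenchymal effectors and 1 of 6 members. The member was Snai1. A match of these letters is a description of the window and was not tested for binding.

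To show where the letters lie, the windows of Snai1 and of 3 epithelial targets, Epcam, Muc1 and Cldn4, are printed. These were named after the windows were seen, since they hold a match and overlap no GENCODE exon. The sequences run 5′ to 3′ on the gene's strand with the last base next to the start, in lower case with the E-box letters in capitals. Snai1 (chr2:167537945-167538194, plus strand) has 1 E-box from base -126, Epcam (chr17:87635729-87635978, plus strand), which encodes an adhesion molecule of epithelia, has E-boxes from bases -187 and -19, Muc1 (chr3:89228806-89229055, plus strand), which encodes an apical mucin, from -234 and -70, and Cldn4 (chr5:134946935-134947184, minus strand), which encodes a tight junction protein, from -14.
Snai1: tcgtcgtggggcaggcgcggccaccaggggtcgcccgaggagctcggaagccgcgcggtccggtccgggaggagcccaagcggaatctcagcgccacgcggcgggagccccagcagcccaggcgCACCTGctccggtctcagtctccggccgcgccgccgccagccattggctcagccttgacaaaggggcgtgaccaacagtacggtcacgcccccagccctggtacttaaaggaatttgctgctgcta
Epcam: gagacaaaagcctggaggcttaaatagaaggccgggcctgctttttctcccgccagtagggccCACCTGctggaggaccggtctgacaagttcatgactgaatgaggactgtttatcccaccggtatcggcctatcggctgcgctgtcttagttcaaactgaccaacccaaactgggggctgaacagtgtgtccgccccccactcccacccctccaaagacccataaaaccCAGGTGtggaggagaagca
Muc1: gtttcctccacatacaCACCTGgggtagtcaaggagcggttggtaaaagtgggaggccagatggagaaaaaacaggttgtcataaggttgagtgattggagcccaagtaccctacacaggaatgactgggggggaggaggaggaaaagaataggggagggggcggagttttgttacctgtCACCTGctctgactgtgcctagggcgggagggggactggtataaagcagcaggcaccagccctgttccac
Cldn4: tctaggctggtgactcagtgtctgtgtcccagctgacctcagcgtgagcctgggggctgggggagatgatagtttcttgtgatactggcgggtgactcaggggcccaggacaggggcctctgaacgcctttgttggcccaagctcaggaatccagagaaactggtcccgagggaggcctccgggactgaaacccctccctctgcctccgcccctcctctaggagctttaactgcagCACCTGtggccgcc
Of these genes Cldn4 fell in tumors against clones, from a mean of 226 CPM to 31.3 CPM (adjusted p of 0.0293). Epcam and Muc1 did not pass the threshold there, with log2 fold changes of -2.34 ± 1.40 and -0.70 ± 1.43. In OSE organoids against OSE tissue all 3 rose, by 3.02 ± 0.31 for Epcam, 7.39 ± 0.61 for Cldn4 and, from 3 counts or fewer in the tissue, Muc1 (adjusted p of 0.00876). In mes organoids against epi organoids or against clones, edgeR called no epithelial target, these 3 included. A link between the E-box letters and these levels was not tested.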

How the data were processed

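RNA was measured in 27 libraries of 9 groups. The authors made CEL-Seq2 libraries, mapped reads with BWA (GRCm38) and deposited a table of raw counts without collapsing molecular identifiers, so amplified copies count separately and intervals cover counting error only. The 27 columns were matched to the labels, and the spike-in row was left out, which leaves 18305 genes.

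The main test was edgeR's quasi-likelihood test (version 4.0.16, R 4.3.3, TMM, filterByExpr) on the counts of the groups compared, with Benjamini-Hochberg adjustment over all genes tested and a threshold of 0.05, and an interaction term compared the culture effect in OSE and oviduct. Where nothing says that libraries came from separate animals, p-values measure the spread between libraries. CPM used TMM factors over all 27 libraries. With 1 to 3 counts over a group, a pooled ratio with an exact 95% interval is given, and with 0 a bound at 3 counts over the group, in place of the fitted fold change. The ratio and its interval treat the libraries of a group as sharing 1 rate, which libraries of unlike depth and level need not do. DESeq2 1.42.0 (the authors used 1.18.0), RLE factors, no filter, a fit of all libraries, a replicate block and leaving out each library were alternatives. The test was checked on simulated data.

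Named genes are the 10 members, the 5 genes most like Vim, Fn1 and Zeb1, and up to 4 called genes per list with the highest mean CPM, with exceptions said in the text. Members and lists were chosen with earlier results of these data known. Within groups 33 pairs of libraries had a chi-square per gene of at least 2.53, above counting error. No scan or batch label was used here. Figures used matplotlib 3.10.9. Some items, and results that need them, are not reported here.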

Additional observations from a re-analysis of the deposited data

Results flagged for a closer look

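In the 6 TBP tumors, 4 of the 10 members had 1 tumor far from the others. Distance was judged by the gap between the extreme value and its neighbour. Chance alone passes the critical gap in about 1 of 20 groups of normally distributed values. The gaps were taken on CPM without a log scale, so the rate at which chance gives them here is not known. Cdh2 was at 26.1 CPM in Tumor 5, with a gap of 0.893 of the range of the group. Twist2 was at 101 CPM in Tumor 6 (gap of 0.744), Snai2 at 77.3 CPM in Tumor 4 (0.661) and Snai1 at 97.6 CPM in Tumor 4 (0.659), against a critical gap of 0.625.

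For Fn1 the difference between organoids and tissue differed between OSE and oviduct by 3.18 on the log2 scale in an interaction test of edgeR (adjusted p of 0.0465, 0.000427 to 0.239 over the alternatives). Of the 10 members 1 was called, where 11.7% of all 11458 genes were called in either direction, so the count does not set the members apart. The Fn1 call was lost without any one of the oviduct or OSE tissue libraries. In the oviduct the organoids were lower than the tissue in edgeR (adjusted p of 0.0371) but not called in DESeq2 (0.184). In OSE the organoids 2 line, at 234 CPM, lay above the tissue.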

How the results depend on the processing

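The member counts moved most between mes and epi organoids, where 3 members were called. DESeq2 called 7, the analysis with no filter on low counts 7 and the fit of all 27 libraries 8, and leaving out 1 library gave 0 (without T2-epi or T4-epi) to 9. With a replicate block that pairs the mes and epi lines by number the count was 7. The labels list the 4 lines as these 2 pairs without saying what a pair shares, and the deviations within pairs correlated at 0.0796. The study describes all 4 lines as derived from 1 original clone, T1-mes and T2-epi from adjacent tumors. With no filter 1 member was called between epi organoids and clones and 8 between the tissues. Leaving out 1 library gave 0 to 1 members for epi organoids against clones, 2 to 5 for tumors against oviduct tissue, 4 to 7 between the tissues, 0 to 2 between oviductal and OSE organoids, and 0 to 3 for the interaction, where DESeq2 and no filter gave 2 and the fit of all 27 libraries 0. In OSE organoids against tissue, DESeq2 and no filter each called 2 members higher (Twist1 and Fn1 in DESeq2) and 6 lower.

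Signs turned in 5 results. Twist1 in epi organoids against clones was -0.25 with DESeq2 and -0.40 to 1.98 without 1 library. Between oviductal and OSE organoids, leaving out 1 library gave -0.36 to 6.51 for Twist1 and -1.35 to 1.23 for Fn1. The interaction of Snai1 was 0.052 with DESeq2, 0.037 with RLE factors, 0.057 with all 27 libraries and -4.81 to 1.35 without 1 library. The interaction of Twist1 ranged from -4.96 to 1.91 without 1 library and passed the threshold in opposite directions without OSE organoids 1 (adjusted p of 0.00765 by edgeR) and without OSE organoids 2 (0.000478). Where this left 1 line in a group, that line is assumed to vary like the other groups. The causes were not tested. Of the members' other fold changes under the alternatives, 737 kept their direction and side of the threshold, 34 lost the call and 51 gained it. Over all genes, calls moved from 110 to 498 (DESeq2), 283 (no filter), 555 (all 27 libraries) and 240 (replicate block) between mes and epi organoids, from 383 to 861 (no filter) and 1133 (all 27) between mes organoids and clones, from 4 to 20 (DESeq2) and 80 (no filter) between epi organoids and clones, from 3333 to 5251 (all 27) between tumors and clones, from 63 to 115 (DESeq2), 372 (no filter) and 95 (replicate block) between clones and Cas9-GFP organoids, from 4495 to 2970 (all 27) between the tissues, from 8 to 264 (DESeq2), 116 (no filter) and 251 (all 27) between the organoids, and from 1338 to 671 (all 27) for the interaction. RLE factors moved the median of all genes between tumors and clones by 0.14. A shallow TBP clone 1 and 2 lines a group in mes, epi and OSE organoids limit what could be detected.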

Other observations

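OSE organoids 2 and OSE organoids 1 differed in most members with counts: Twist1 stood at 98.1 against 0.75 CPM, Fn1 at 234 against 39.2, Vim at 12.8 against 0.75 and Snai1 at 4.60 against 0 CPM. Oviductal organoids of wild-type mice had 30.8 to 57.5 CPM of Vim, while Cas9-GFP organoids had 0 to 0.94 CPM, and Twist1 was at 68.5 to 79.7 against 29.5 to 44.9 CPM. These 2 kinds of oviductal organoid were not compared by a test, and their oviduct secretory markers summed to 15041 to 22865 against 231 to 247 CPM.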
